A study of Mus musculus with 2 samples.

Results

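Circular RNAs (circRNAs) of 4 genes for digestive enzymes of the intestinal brush border, Sis, Enpep, Mgam and Alpi, were described in crypts of the mouse small intestine. The members were all entries of the deposited circRNA table whose gene name, split at commas, was one of these 4 symbols. They were 7 of the 1132 listed circRNAs, with 4 for Mgam and 1 each for Sis, Enpep and Alpi. The series held 1 group of 2 libraries (replicates 1 and 2), made from total RNA of wild-type crypts, and no other genotype or treatment. No strain, age or number of mice was used here, so p-values and the spread between the libraries may be technical only. The sample titles name crypts and the cell type entry names stem cells. Of 10 stem cell marker genes and 5 Paneth cell marker genes, 0 hosted a listed circRNA. Of all multi-exon protein-coding genes, a set that held 4 of the 5 Paneth genes, 4% were hosts. In lists this short a count of 0 is near that share, so it is no trait of these markers. It also says nothing of their messenger RNA, since linear transcripts were not analysed here.

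A circRNA forms when the end of an exon is spliced back to the start of the same exon or of an exon before it, and it is counted by reads that cross this join, called back-splice reads. The brush border is the microvillus surface of absorptive enterocytes, and it carries membrane-bound enzymes that finish the digestion of sugars and peptides. Sis encodes sucrase-isomaltase, which splits sucrose and the branch points of starch, and Mgam encodes maltase-glucoamylase, a related enzyme of starch digestion. Enpep encodes glutamyl aminopeptidase, a zinc enzyme that removes acidic residues from the amino end of peptides, and Alpi encodes intestinal alkaline phosphatase, which removes phosphate from nucleotides and from bacterial lipopolysaccharide. All 4 are known as genes of differentiated enterocytes, which lie mainly on the villi rather than in the crypts.

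The sequences of the circles of Sis and Enpep and of the feature of Alpi are shown because their joined ends define what was counted. They are written 5′ to 3′ on the strand of the gene from the GENCODE M21 transcripts (build mm10), and the capitals mark the 20 bases on each side of the back-splice, so that the capitals at the end of a line are joined to the capitals at its start. The Sis circle covered exons 5 to 6 of Sis-202 (chr3:72958113-72960367, minus strand), the Enpep circle covered exons 2 to 3 of Enpep-201 (chr3:129319380-129321501, minus strand), and the Alpi feature lay inside exon 11 of Alpi-201 (chr1:87098596-87098737, minus strand).
Sis: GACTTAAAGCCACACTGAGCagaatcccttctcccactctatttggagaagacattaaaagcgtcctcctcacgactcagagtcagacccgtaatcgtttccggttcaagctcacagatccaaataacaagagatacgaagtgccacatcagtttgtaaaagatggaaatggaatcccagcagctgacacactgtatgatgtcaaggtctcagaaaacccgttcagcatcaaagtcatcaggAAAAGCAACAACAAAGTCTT
Enpep: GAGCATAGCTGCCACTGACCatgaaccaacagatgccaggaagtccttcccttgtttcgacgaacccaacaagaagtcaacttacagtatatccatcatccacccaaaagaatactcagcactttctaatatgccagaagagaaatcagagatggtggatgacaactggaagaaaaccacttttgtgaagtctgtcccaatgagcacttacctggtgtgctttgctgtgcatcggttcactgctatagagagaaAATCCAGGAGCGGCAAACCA
Alpi: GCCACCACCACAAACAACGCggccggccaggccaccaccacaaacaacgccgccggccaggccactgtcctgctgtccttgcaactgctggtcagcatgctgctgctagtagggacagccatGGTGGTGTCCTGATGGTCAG

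Sis gave most of the signal of the 4 genes. Its circRNA was crossed by 64 reads in replicate 1 and by 68 in replicate 2, that of Enpep had 24 and 16, and that of Alpi had 11 and 4. The 4 features of Mgam summed to 17 and 9 reads. The order Sis, Enpep, Mgam, Alpi was therefore the same in both libraries. A back-splice count covers 1 join whatever the length of the circle, so levels were scaled to the back-splice reads listed for each library (3546 and 4441) and not to length, which makes 1 read worth 282 CPM (counts scaled to a total of 1000000) in replicate 1 and 225 in replicate 2.

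**Figure D1:**
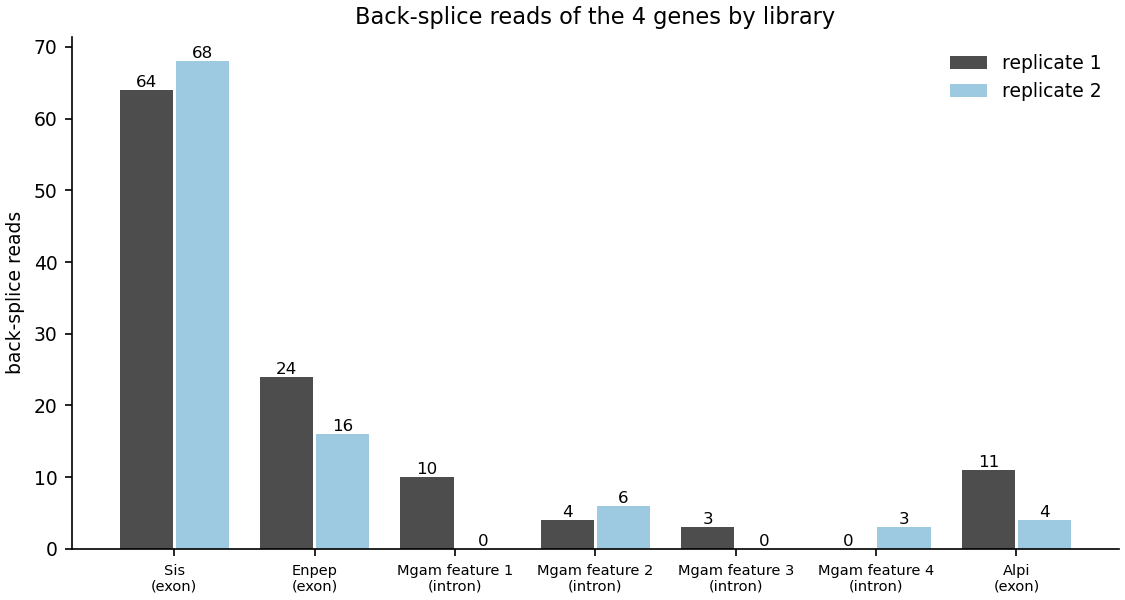
Bars give the back-splice reads (y axis) of each listed circRNA of the 4 genes in replicate 1 (dark) and replicate 2 (light), with the type that the authors' table gives below each name. Sis stands at 64 and 68 reads, and 3 of the 4 Mgam features are listed at 0 in 1 library.

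In CPM, Sis stood at 18048.5 in replicate 1 and 15312 in replicate 2 (mean 16680.2 ± 1935, SD, n = 2). Enpep stood at 6768 and 3603 CPM (5185 ± 2238), the Mgam sum at 4794 and 2027 CPM (3410.4 ± 1957), and Alpi at 3102 and 901 CPM (2001 ± 1557). The values of Sis lay above both values of Enpep, whereas the ranges of Enpep and Mgam overlapped, as did those of Mgam and Alpi. Within a library, Sis was 2.67 times Enpep in replicate 1 and 4.25 times in replicate 2, and the intervals of their shares were apart in both. Enpep was 1.41 and 1.78 times the Mgam sum, and the Mgam sum was 1.55 and 2.25 times Alpi, with intervals that overlapped in both libraries.

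The Sis circRNA alone took 1.80% of the listed reads of replicate 1 (95% Clopper-Pearson interval 1.39 to 2.30%) and 1.53% of those of replicate 2 (1.19 to 1.94%). Enpep took 0.677% (0.434 to 1.01%) and 0.360% (0.206 to 0.584%). Alpi took 0.310% (0.155 to 0.554%) and 0.0901% (0.0245 to 0.230%). Together the 4 genes held 3.27% (2.71 to 3.91%) and 2.18% (1.77 to 2.66%). The intervals reflect the error of counting alone, since copies of a molecule made by PCR were not told apart.

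Among the 1132 circRNAs, that of Sis ranked 3 by mean level, 5 in replicate 1 and 6 in replicate 2. The circRNAs closest to it in level were those of Ogdh (69 and 87 reads) and Rasa2 (68 and 82) above it, and of Btnl1 (58 and 74) and Slc43a2 (75 and 47) below it. Its mean and that of Btnl1 differed by less than the SD of Sis between libraries. The Enpep circRNA ranked 20, 15 and 40 in the same 3 orders, and the Alpi feature ranked 91, 56 and 246. The Mgam features ranked 145, 176, 516 and 604 by mean level, in a table whose median circRNA had 3 reads over both libraries.

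**Figure D2:**
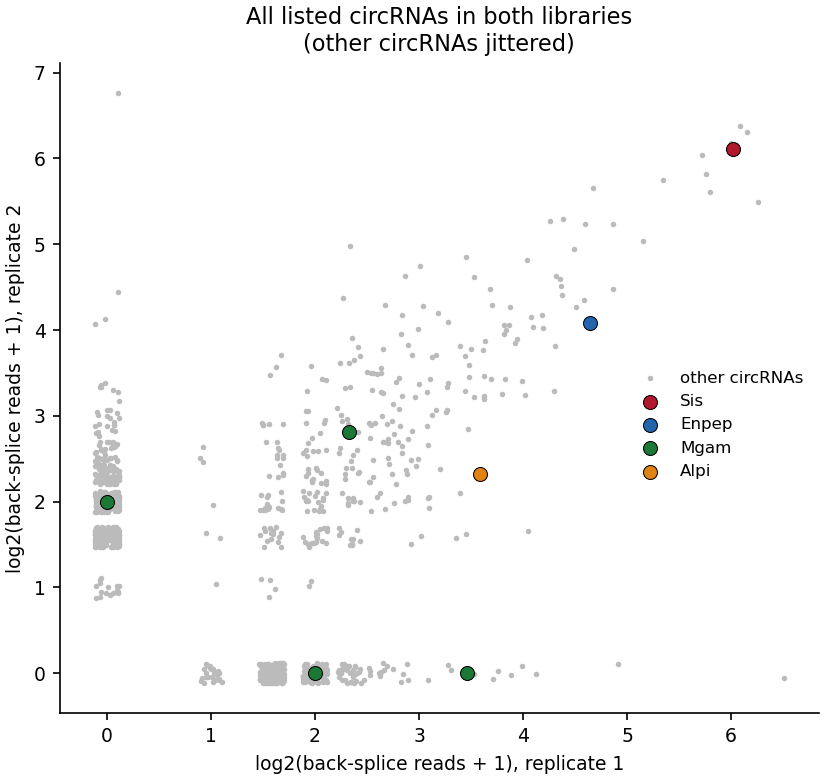
Each point is a listed circRNA, with log2(reads + 1) in replicate 1 on the x axis and in replicate 2 on the y axis; grey points are the other circRNAs, moved slightly at random so that they do not hide each other. Sis lies at the upper right among the highest of the circRNAs seen in both libraries, Enpep lies below it, and 3 Mgam points lie on an axis because 1 library is at 0.

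The next comparison asked whether the 2 libraries differed in these circRNAs. Each circRNA's reads were set against the library totals in a two-sided exact binomial test. In this test, with Benjamini-Hochberg adjustment over all 1132 circRNAs, 1 of the 7 members passed, a feature of Mgam with 10 and 0 reads (adjusted p = 0.0211). Of all circRNAs, 1.59% passed in either direction and 1.15% were higher in replicate 1. The call of the Mgam feature ended (adjusted p = 0.249) when a listed 0 was counted as 1 read. A listed 0 may hide a single read, because 372 of the 373 circRNAs that summed to 2 reads had both in 1 library. Single reads were not always left out, since 41 circRNAs were listed with 1 read. Sis (adjusted p = 0.631), Enpep (0.433) and Alpi (0.427) did not pass in the exact binomial test. Alpi, with 15 reads, stood 3.44 times higher in replicate 1, and what size of difference this depth could detect was not computed.

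All 4 genes had the higher CPM in replicate 1, by 1.18 times for Sis, 1.88 times for Enpep, 2.37 times for Mgam and 3.44 times for Alpi, and these ratios of gene sums were not tested. The other 9 genes of the absorptive enterocyte marker list, of which 4 hosted a circRNA, summed to 8 reads in replicate 1 and 7 in replicate 2 (2256 and 1576 CPM). The goblet cell list had 9 and 0 reads (2538 and 0 CPM, 3 of 6 genes), with Tff3, Clca1 and Spink4 not listed. None of its 3 hosts had a feature at splice sites of 1 transcript, and the type given for Fcgbp and for Muc2 was antisense. Immune markers had 4 and 26 reads (1128 and 5855 CPM, 3 of 8 genes), with Ptprc and Cd3e not listed. Most of these reads came from Adgre1 (4 and 18), and Ikzf1 and Bcl11b had 0 and 4 each. Beside the host counts of these lists, 4% of all multi-exon protein-coding genes were hosts. The part of these lists' differences in the ratios of the 4 genes was not tested. In bulk RNA, fewer cells of a type and less RNA per cell cannot be told apart.

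Of the 7 members, 4 had reads in both libraries, 1 for each gene, against 29.2% of all circRNAs. That share is over circRNAs of any depth, with a median of 3 reads, so it is not a comparison at like depth. Sis, Enpep and Alpi were each seen in both libraries, and of the 4 Mgam features 1 was, in a table where 15.1% of intronic features were. Where both libraries summed to 10 reads or more, 7.22% of circRNAs were listed in 1 library, and the Mgam feature with 10 and 0 reads was one of them.

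The circRNAs of Sis and Enpep were alike in build. Both were listed as exonic, joined annotated splice sites at both ends, as 89% of all circRNAs did, and held 2 exons, as did 33.8% of the 1008 circRNAs at splice sites of 1 transcript. In Sis (ENSMUSG00000027790) the circle joined exon 5 (110 bases) and exon 6 (152 bases) of the 48 exons of Sis-202 into 262 bases. In Enpep (ENSMUSG00000028024) it joined exon 2 (142 bases) and exon 3 (132 bases) of the 20 exons of Enpep-201 into 274 bases. Of the circRNAs at splice sites, 16.1% were shorter than that of Sis and 19.1% shorter than that of Enpep.

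**Figure D3:**
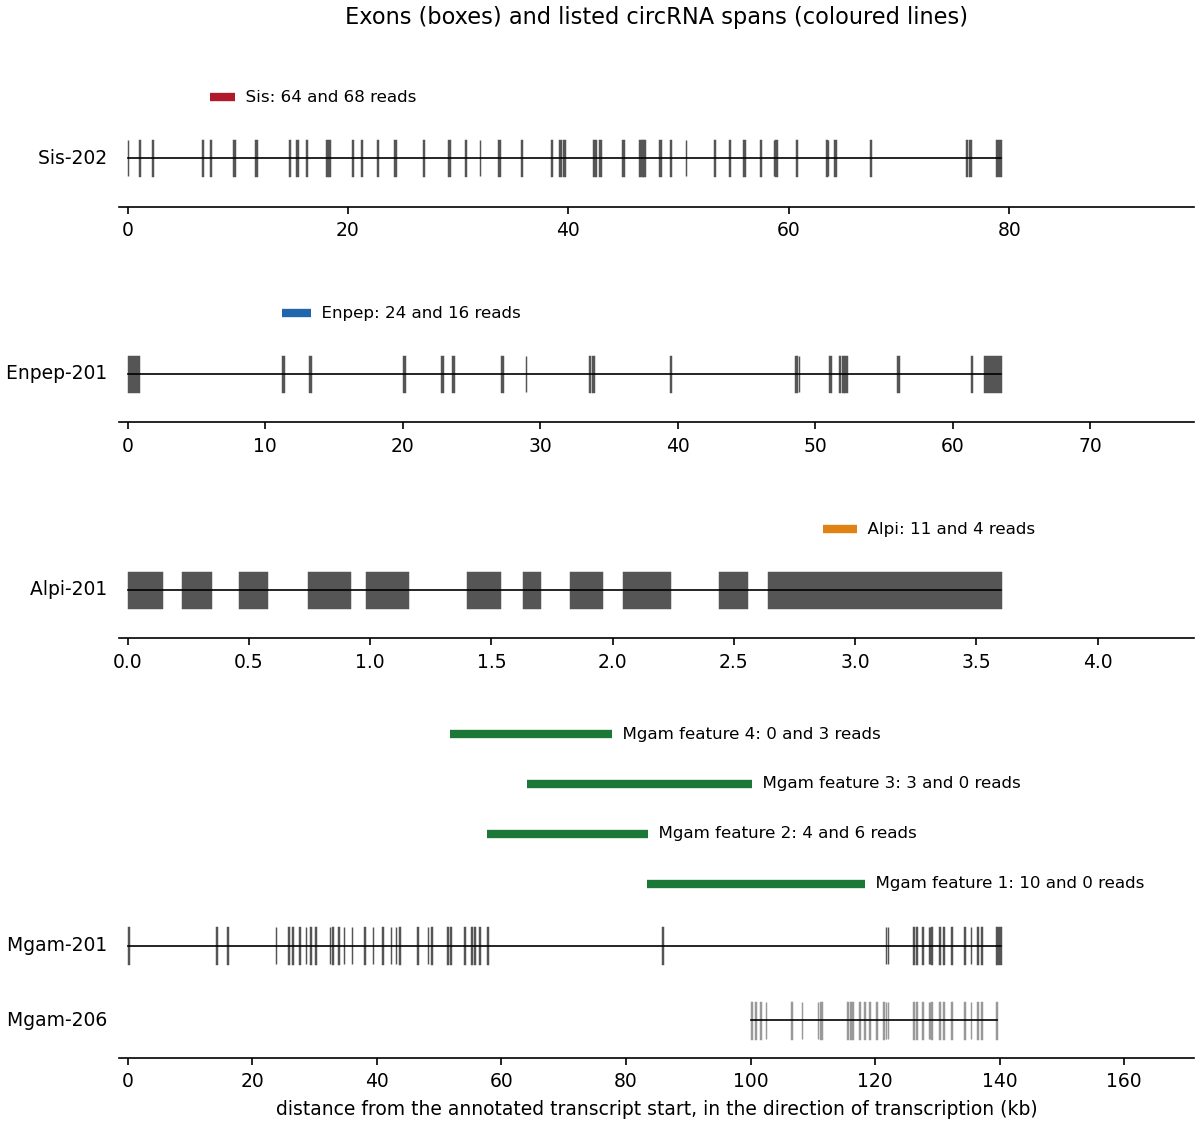
Boxes are annotated exons along each gene and coloured lines are the spans of the listed circRNAs, with the reads of replicates 1 and 2; the x axis is the distance in kilobases from the annotated transcript start in the direction of transcription. The circles of Sis and Enpep lie near the 5′ end of their genes, the Alpi feature lies inside the last exon, and the Mgam features reach into or across the wide introns in the middle of the gene.

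Both circles were wholly coding. The Sis circle held codons 115 to 202 of 1818, in the part of the protein that carries the isomaltase subunit, since isomaltase forms the amino-terminal side of sucrase-isomaltase. The Enpep circle held codons 207 to 298 of 945. Both lengths left a remainder of 1 on division by 3, so that a second passage around the circle would be read in another frame. Read in the annotated frame, neither held a stop codon in the first passage, and the first stop came 264 bases after the start of the first whole codon in Sis and 288 bases after it in Enpep, in circuit 2 of each. This describes the sequence alone, and translation was not measured.

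The Sis circle had short introns on either side. The intron upstream of it measured 645 bases and the intron downstream 1814 bases, against medians of 11050 and 8216 bases over the 1008 circRNAs at splice sites. By the mean of both introns (1229.5 bases), 6.65% of those circRNAs had shorter ones. Of the 23 circRNAs at splice sites among the 25 with the highest mean level, 0 had a shorter mean than Sis. The introns beside the Enpep circle measured 10360 and 6698 bases, a mean that exceeded that of 39.9% of the circRNAs at splice sites and of 6 of those 23. These ranks are descriptions of the listed circRNAs, with no test.

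**Figure D4:**
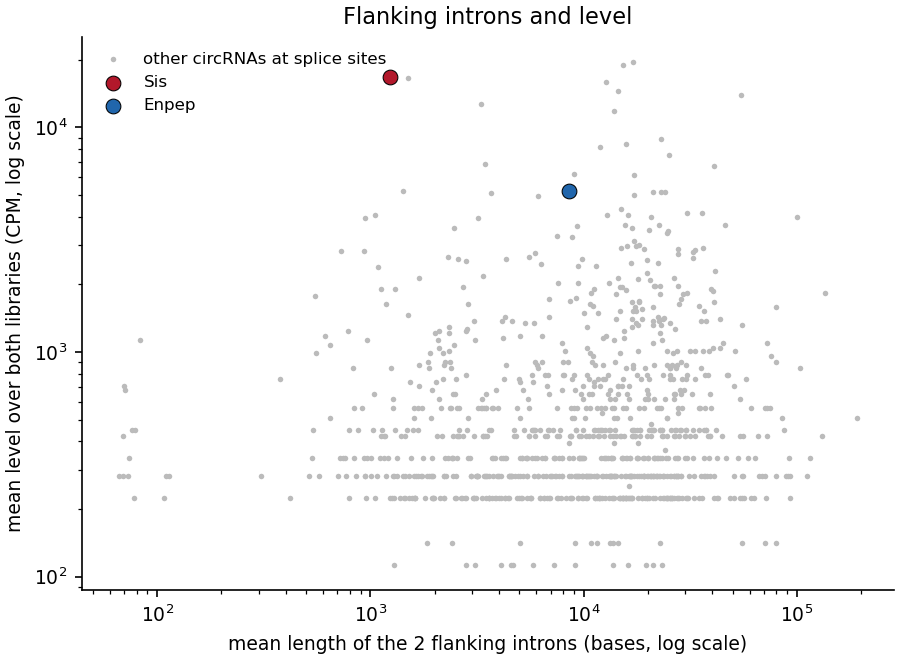
Each point is 1 of the 1008 circRNAs at splice sites of 1 transcript, with the mean length of its 2 flanking introns on the x axis and its mean level in CPM on the y axis, both on log scales. Sis sits at the upper left, with a high level and a mean flanking intron of 1229.5 bases, and Enpep lies nearer the middle at 8529 bases.

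The Alpi feature was of another kind. Although it was listed as exonic, both of its ends lay inside exon 11, the last exon of Alpi-201 (ENSMUSG00000079440), and neither was an annotated splice site. It started 227 bases into this exon of 963 bases and ended 594 bases before its end. Of its 142 bases, 135 were the end of the coding sequence with the stop codon and 7 belonged to the 3′ untranslated region. Its first 30 bases were followed by a copy that was identical at 29 of 30 positions, and 63.4% of its bases were G or C, against 54.9% in the whole exon.

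The bases at either end of the Alpi feature spelled the letters of a splice acceptor and a splice donor. The capitals show AG just before the first base and GT just after the last base, on the strand of the gene.
Alpi start: cccgggccAGgccaccacca
Alpi end: tgatggtcagGTcctccgct
Of the 6 exonic circRNAs of the table whose ends lay inside 1 annotated exon and at no splice site, 6 had AG before and GT after, so these letters were no mark of Alpi alone. They are a description of the sequence and do not show that splicing occurred there. No transcript of another gene resembled the Alpi feature or the circles of Sis and Enpep in a BLAST search of all GENCODE M21 transcripts (E-value limit 1e-05).

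Mgam (ENSMUSG00000068587, chromosome 6, plus strand) had 4 features, all listed as intronic. Feature 1, chr6:40712191-40747150, had 10 and 0 reads. Feature 2, chr6:40686485-40712303, had 4 and 6 reads, and was the one seen in both libraries. Feature 3, chr6:40692953-40729127, had 3 and 0 reads, and feature 4, chr6:40680593-40706523, had 0 and 3. They spanned 34960, 25819, 36175 and 25931 bases, against 2255 bases for Sis and 2122 for Enpep. The highest of the 4 held 38.5% of the reads of the gene.

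Each Mgam feature had 1 end at an annotated splice site, as had 83% of the 53 intronic features of the table. Features 2 and 4 started at the starts of exon 31 (126 bases) and exon 26 (201 bases) of the 48 exons of Mgam-201. Features 1 and 3 ended at the ends of exon 13 (97 bases) and exon 1 (176 bases) of Mgam-206, a transcript of 32 exons that begins in the middle of the gene. The other 4 ends matched no annotated exon, and all 4 lay in intron 31 of Mgam-201 (chr6:40686611-40714600, 27990 bases). The start of feature 1 and the end of feature 2 lay close together there and bounded 113 bases (chr6:40712191-40712303).

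The same length of 113 bases belonged to 3 of the 71 distinct annotated exons of Mgam, among them exon 30 of Mgam-201 and exon 14 of Mgam-206. These 2 exons are copies of each other within a repeated block of the gene. Exons 24 to 31 of Mgam-201 had the same lengths, in the same order, as exons 8 to 15 of Mgam-206, and their sequences were identical at 72.5 to 97.0% of positions (median 87.5%). Exon 32 of Mgam-201 and exon 16 of Mgam-206, both of 129 bases, were identical at all positions (100%).

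**Figure D5:**
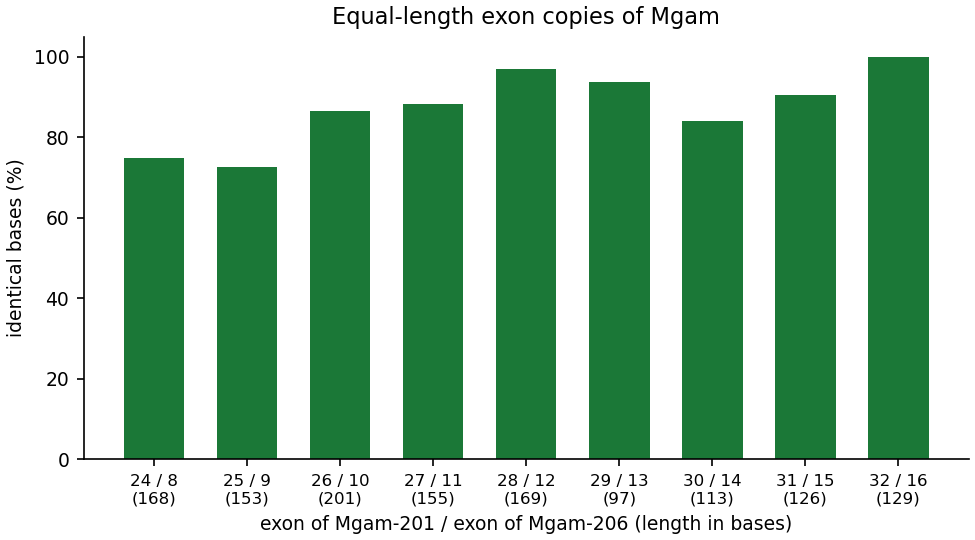
Bars give the share of identical bases (y axis, percent) between an exon of Mgam-201 and the exon of the same length in Mgam-206, with the exon numbers and the length in bases on the x axis. Identity runs from 72.5% for exons 25 and 9 to 100% for exons 32 and 16.

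Of the exon pairs below, the first holds the annotated end of feature 1 (exon 13) and its copy, the last holds the annotated end of feature 2 (exon 31) and its copy, and the middle pair is shown because it has the length of the unannotated 113 bases, although it lies at neither join. Capitals mark the positions where the copies differ (build mm10, plus strand, GENCODE M21). They are exon 29 at chr6:40684439-40684535, exon 13 at chr6:40747054-40747150, exon 30 at chr6:40685277-40685389, exon 14 at chr6:40747856-40747968, exon 31 at chr6:40686485-40686610 and exon 15 at chr6:40749026-40749151.
Mgam-201 exon 29: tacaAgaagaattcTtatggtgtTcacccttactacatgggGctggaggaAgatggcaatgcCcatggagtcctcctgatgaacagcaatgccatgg
Mgam-206 exon 13: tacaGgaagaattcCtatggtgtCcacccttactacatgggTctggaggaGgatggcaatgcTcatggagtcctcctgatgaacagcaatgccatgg
Mgam-201 exon 30: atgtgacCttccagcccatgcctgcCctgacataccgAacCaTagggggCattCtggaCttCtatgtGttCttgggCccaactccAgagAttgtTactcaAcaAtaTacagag
Mgam-206 exon 14: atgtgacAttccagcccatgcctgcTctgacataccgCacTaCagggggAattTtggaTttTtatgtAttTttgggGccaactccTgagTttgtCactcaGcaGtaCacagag
Mgam-201 exon 31: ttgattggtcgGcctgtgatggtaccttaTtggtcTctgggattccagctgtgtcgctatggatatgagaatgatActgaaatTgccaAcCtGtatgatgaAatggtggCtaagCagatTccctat
Mgam-206 exon 15: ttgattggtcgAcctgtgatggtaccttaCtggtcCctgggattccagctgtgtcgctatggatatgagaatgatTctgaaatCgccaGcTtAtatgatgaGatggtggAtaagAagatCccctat

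Exon 29 and its copy differed at 6 of 97 positions, exon 30 and its copy at 18 of 113, and exon 31 and its copy at 12 of 126. In the BLAST search these exons also matched transcripts of other genes. The longest such match was to Mgam2-ps for 5 of the 6 exons, at 73.6 to 84.5% identity, and to Sis for exon 14, at 80.7%. At the joined end of feature 1, the last 30 bases of exon 13 of Mgam-206 were identical to the last 30 of exon 29 of Mgam-201 at 30 positions. At the joined end of feature 2, the first 30 bases of exon 31 of Mgam-201 and of its copy, exon 15 of Mgam-206, were identical at 28 positions. For the annotated ends of features 3 and 4 the matching counts were 27 of 30 (exon 1 of Mgam-206 against exon 40 of Mgam-201) and 21 of 30 (exon 26 against its copy). In the linear transcripts, the 97-base exon is followed by the 113-base exon, which is followed by the 126-base exon. Feature 1 joined the end of a 97-base exon to the start of the unannotated 113 bases, and feature 2 joined the end of those 113 bases to the start of a 126-base exon, which is the same order of lengths. Whether the reads of these features came from circles, from linear joins between similar copies or from another of these genes was not tested, and the counts of Mgam are uncertain for this reason.

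The 4 genes were then placed among other genes of the brush border. Of 26 genes for brush-border hydrolases, 8 (30.8%) hosted at least 1 listed circRNA, against 4% of all multi-exon protein-coding genes. The members were chosen from the hosts, and without them 4 of 22 genes (18.2%) were hosts, with 7 reads in each library. The 4 members held 94.3% of the reads of this list in replicate 1 and 93.3% in replicate 2. The other hosts were Ggt1, which encodes a gamma-glutamyltransferase, with 0 and 5 reads, Mme, which encodes the endopeptidase neprilysin, with 4 and 0, Enpp3, which encodes a nucleotide pyrophosphatase, with 3 and 0, and Naaladl1, an aminopeptidase gene, with 0 and 2. Each of these 4 was listed in 1 library only. With reads in both libraries, the hosts of this list were the 4 members and 0 of the other 22 genes (1.36% of all multi-exon protein-coding genes), and with both ends at splice sites of 1 transcript they were 6 genes, which include Sis and Enpep and leave out Mgam and Alpi (3.75% of all such genes). The remaining 18 genes, among them the lactase gene Lct, the trehalase gene Treh, the aminopeptidase gene Anpep and the dipeptidyl peptidase gene Dpp4, had no listed circRNA. Expression of the host genes was not measured here, so how often genes of like expression host circRNAs is not known from these data.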

How the data were processed

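The members and gene lists were chosen with earlier results of these data known. Per the submitters' processing notes, coordinates are on mm10. Which aligner, caller and filters made the table is not given in the sources used here. Per library the deposited table gave whole-number counts of back-splice reads, per the file headers, and a normalised signal that the authors named CPM, equal to 272 per read in replicate 1 and 233 in replicate 2. The listed reads are not the sequencing depth, and the number of value columns not used was 0. CPM was computed from the listed counts. With 1 group, no model of conditions was fitted.

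Positions were matched exactly (tolerance 0 bases) to exon edges of 1 transcript of the named gene in GENCODE M21, which is on the same build, and sequences came from its transcripts. The exact binomial test (scipy 1.17.1, threshold 0.05) was checked on simulated counts. These held counting error only, so the check does not cover other spread between libraries. Alternatives used edgeR 4.0.16 (TMM) and DESeq2 1.42.0 size factors, Fisher's exact test, read minimums and each library alone. BLAST 2.17.0 searched transcripts. Genes named are the 4 members, list genes and the 4 circRNAs nearest to Sis in level. Counting strand is not stated, so antisense reads could not be separated beyond the antisense type that the authors give to some entries.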

Additional observations from a re-analysis of the deposited data

How the results depend on the processing

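Under TMM, DESeq2 size factors and exon totals, the summed level of the 4 genes moved by less than the SD between libraries. So did the level of each gene. The authors' deposited values gave the same summed level as TMM (27099.7 CPM), so the 2 are 1 alternative. Each of these settings rescales a whole library by 1 factor. The share of reads of the 4 genes moved by less than the SD with exon totals and with a minimum of 5 reads. Exon totals kept the intronic features of Mgam among the members' reads, so that result is not a share of exonic reads. With n = 2 a single library cannot lie further than the SD from the mean, so either library alone is no test of stability: Mgam went from 3410.4 to 2027 CPM and Alpi from 2001 to 901 CPM without replicate 1. The mean of their summed reads (106.5 ± 13.4, n = 2) became 86 with circRNAs at splice sites of 1 transcript, which by construction leaves out Mgam and Alpi. The count of members that differed between libraries (1) became 0 when a listed 0 was counted as 1 read, a setting chosen after the data were seen, and stayed at 1 with Fisher's exact test, TMM-scaled totals and a minimum of 5 reads, with adjusted p of the Mgam feature from 0.00731 to 0.249 over these settings. Hydrolase hosts (8) became 4 with reads in both libraries and 5 with at least 5 reads, and were 6 in either library alone. Depth limits all members other than Sis, with 40 reads or fewer per gene. No paired analysis was possible because there is 1 group.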

Other observations

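Genes that build the brush border rather than digest at it also hosted circRNAs. Of 18 genes for microvillus structure, 8 (44.4%) were hosts, against 4% of all multi-exon protein-coding genes, with 30 and 14 reads in replicates 1 and 2. With both ends at splice sites of 1 transcript the hosts were 7 genes (3.75% of all such genes). With reads in both libraries they were 3 (1.36%). The list was chosen with earlier results known. Expression was not measured here, so the share among genes of like expression is not known. Pls1, which encodes the actin-bundling protein plastin 1, had 5 circRNAs with 12 and 2 reads, and none of the 5 was in both libraries. Myo1d and Myo1e, which encode class I myosins, had 4 and 2 reads each, and Baiap2l1, which encodes an adaptor of membrane and actin, had 2 and 2. Myo7b, a myosin gene of the microvillus tip, had 2 and 6 reads over 2 circRNAs. Cdhr2, a protocadherin gene of microvillus links, and Cobl, an actin nucleator gene, had 2 and 0 each, and Ezr, the gene of the membrane linker ezrin, had 2 and 0 in a feature listed as antisense.

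Of 17 genes for enterocyte transport and lipid handling, 7 (41.2%) were hosts, against 4% of all multi-exon protein-coding genes, with 17 and 7 reads. With both ends at splice sites of 1 transcript the hosts were 2 genes (3.75% of all such genes). With reads in both libraries there was 1 (1.36%). The limits on list choice and expression given for the microvillus genes hold here too. Slc5a1, which encodes the sodium-coupled glucose transporter that takes up the sugar released by brush-border enzymes, had 3 and 5 reads at splice sites and was the one host of this list seen in both libraries. Its entry is shared with the overlapping gene Gm15936. Cubn, the gene of the receptor cubilin, had 3 and 0 reads at splice sites. The features of Npc1l1 (4 and 0), Apob (3 and 0) and Apoa1 (2 and 0) were listed as antisense, that of Slc3a1 (2 and 0) as intronic, and that of Apoa4 (0 and 2) as exonic with no match to splice sites of 1 transcript.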
